A study of Mus musculus with 59 samples.

Results

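The 43 genes described here encode proteins that copy DNA and divide the cell. They were chosen by symbol from the 22134 genes with at least 1 listed transcript in the RNA-seq of single mouse epiblasts, and the transcript with the highest mean count stood for each gene. Of the 43, 27 act in or just before S phase (S-phase members) and 16 act in G2 and mitosis (mitotic members), and all 43 passed the filter on low counts in both crosses. The RNA-seq compared 4 Ehmt2-/- epiblasts (labelled G9a-/-) with 4 controls (G9a+/+), and 3 Ezh2-/- epiblasts (Ezh-/-) with 3 controls (Ezh+/+). All 14 were dissected at E6.25 from embryos of mixed background, and 1 library was made from each epiblast after amplification of its RNA. G9a, encoded by Ehmt2, places dimethylation on lysine 9 of histone H3, and EZH2 places trimethylation on lysine 27. Per the study, mutants came from crosses of heterozygous parents, for Ehmt2 with an allele derived from a conditional one and a deltaPE-Pou5f1-EGFP reporter line, and controls of either cross could be homozygous wild type or heterozygous although the labels give wild type. The mutations were germline, so extraembryonic tissues carried them too. Embryos came from 4 litters in the Ehmt2 cross and 3 in the Ezh2 cross, with the litter of each not given, and p-values measure the spread between single epiblasts. The question addressed was whether loss of either enzyme altered the transcripts of the replication and division machinery.

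Replication begins when the origin recognition complex, CDC6 and CDT1 load the MCM2-7 helicase onto DNA in G1. Cyclin E with CDK2, and the replication kinase CDC7, then turn the loaded helicase on by recruiting CDC45 and the GINS complex, after which the polymerases and their sliding clamp PCNA follow. Cyclin B with CDK1 drives entry into mitosis, and the spindle checkpoint delays the separation of chromosomes until they are attached. CDC20 with the anaphase-promoting complex then ends mitosis. Many S-phase genes are targets of E2F factors, and many mitotic genes are controlled through a cell cycle homology region (CHR) and CCAAT boxes. Epiblast cells around gastrulation cycle very fast and spend much of the cycle in S phase.

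RefSeq promoter windows, from 250 bases before to 50 after the transcription start (GRCm38.p6), were found for 34 of the 43 members, and none for Mcm4, Gins1, Gins2, Gins4, Pole, Ccne2, Ccna2, Aurkb and Tpx2. For Mcm7, Cdc6 and E2f1 the RefSeq start lay 539, 350 and 466 bases downstream of the start of the counted transcript. Their windows thus lay downstream of that start, and those of Mcm7 and Cdc6 are among the windows with an E2F core. To show the motifs, 120 bases upstream of the start, free of annotated exons, follow for 3 S-phase and 3 mitotic members, with capitals marking matches to an E2F core, a CHR or a CCAAT box on either strand. They were picked for holding the motifs: such a window was free of exons for 12 S-phase members, of which only the 3 shown held an E2F core in it and 1 held a CHR, and for 11 mitotic members, of which 3 held an E2F core and 5 a CHR.
Mcm6: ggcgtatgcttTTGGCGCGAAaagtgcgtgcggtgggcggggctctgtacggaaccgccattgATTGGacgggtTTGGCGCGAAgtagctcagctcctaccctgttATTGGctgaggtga
Cdk2: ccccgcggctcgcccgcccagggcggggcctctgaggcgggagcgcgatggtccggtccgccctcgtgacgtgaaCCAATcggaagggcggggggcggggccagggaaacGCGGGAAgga
Rrm1: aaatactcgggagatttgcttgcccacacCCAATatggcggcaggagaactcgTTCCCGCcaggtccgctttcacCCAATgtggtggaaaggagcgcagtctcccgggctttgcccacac
Cdk1: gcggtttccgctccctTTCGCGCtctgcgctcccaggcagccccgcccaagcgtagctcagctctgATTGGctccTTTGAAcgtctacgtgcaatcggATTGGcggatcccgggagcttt
Cdc20: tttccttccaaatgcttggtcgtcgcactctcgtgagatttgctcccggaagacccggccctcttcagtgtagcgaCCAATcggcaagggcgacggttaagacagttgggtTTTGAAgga
Top2a: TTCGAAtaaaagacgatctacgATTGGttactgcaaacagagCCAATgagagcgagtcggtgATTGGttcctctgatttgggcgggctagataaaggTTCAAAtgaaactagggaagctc
The windows lie at chr1:128359706-128359825 (- strand) for Mcm6, chr10:128705052-128705171 (- strand) for Cdk2, chr7:102441575-102441694 (+ strand) for Rrm1, chr10:69352939-69353058 (- strand) for Cdk1, chr4:118437353-118437472 (- strand) for Cdc20 and chr11:99024190-99024309 (- strand) for Top2a.

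The E2F core was searched on both strands as the letters TTGGCGC, a common form of the site. Also counted as an E2F core were the letters TTCCCGC on either strand. The form TTCGCGC was taken in the same way. A last accepted form was TTGCCGC on either strand. For the CHR the letters TTTGAA were searched on both strands. Its variant with a CpG, TTCGAA, was counted as well. The CCAAT box was searched by its name's letters on both strands. An E2F core stood in 14 of 21 S-phase windows (66.7%, Wilson 95% interval 45.4 to 82.8%) and in 3 of 13 mitotic windows (23.1%, 8.18 to 50.3%), against 9.57% of all 32851 windows in the table. For the CHR the order was the opposite, with 5 of 21 S-phase windows (23.8%, 10.6 to 45.1%) and 11 of 13 mitotic windows (84.6%, 57.8 to 95.7%), against 19.2% of all windows. The CCAAT box stood in 15 of 21 S-phase windows (71.4%) and 12 of 13 mitotic windows (92.3%), against 37.4% of all windows. CCAAT and the E2F core can share letters, and in 1 window of each list a CCAAT match overlapped an E2F match, but every window counted for CCAAT also held one clear of E2F. The intervals cover counting error only, and a match is a description of letters.

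In control epiblasts the members spanned a wide range of levels per kb of exon, given as CPM (each transcript's share of the library's counts, TMM-scaled) divided by transcript length. The highest was Pcna, the sliding clamp, at 155 ± 19.4 CPM per kb (SD, n = 4) in the Ehmt2 controls and 159.7 ± 10.4 (n = 3) in the Ezh2 controls. Next came Top2a, the topoisomerase that untangles sister chromatids, at 73.2 and 82.0 CPM per kb in the controls of the Ehmt2 and Ezh2 crosses, and Rrm2, the small subunit of ribonucleotide reductase, at 70.7 and 54.3. Top2a and Rrm2 lay within the SD of the latter (9.31) in the Ehmt2 controls and further apart in the Ezh2 controls, where their SDs were 9.85 and 11.9. The 6 subunits of the MCM helicase lay close together, from 26.1 CPM per kb for Mcm5 to 44.7 for Mcm7 in the Ezh2 controls. The lowest levels were those of Gins3, at 1.81 and 2.09 CPM per kb, E2f1 at 5.08 and 3.34, and Ccne2, cyclin E2, at 4.02 and 4.91. The median level was 16.2 CPM per kb over S-phase and 25.8 over mitotic members in the Ehmt2 controls, and 14.4 and 27.7 in the Ezh2 controls. Counts behind a member ran from 102 for Gins3 to 23531 for Top2a in a single Ehmt2-cross epiblast, and from 136 to 18547 in the Ezh2 cross.

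**Figure D1:**
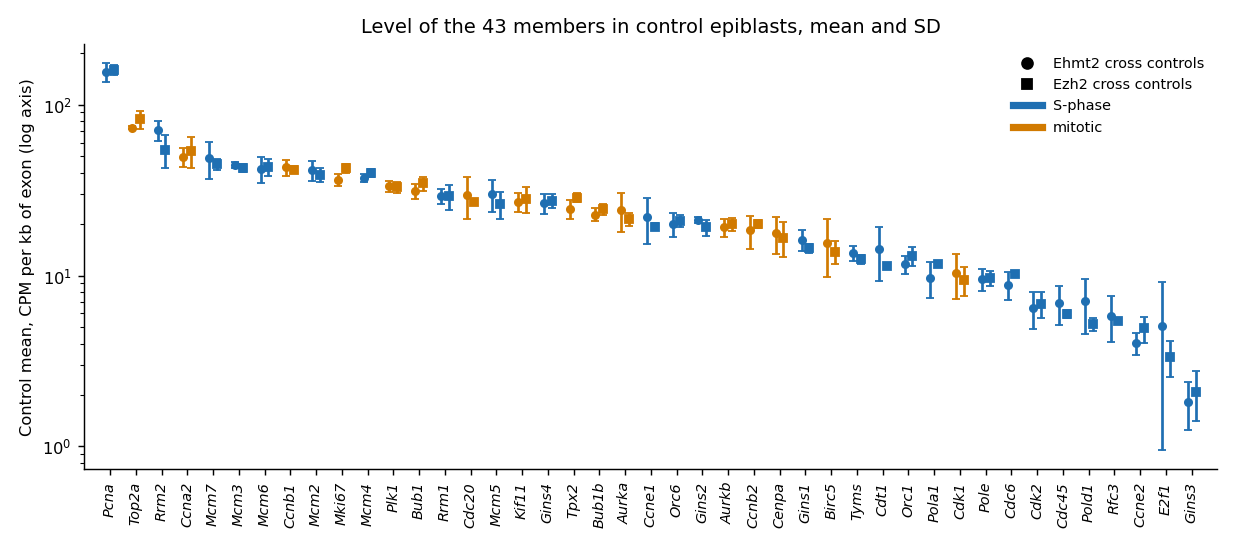
Mean level of each member in control epiblasts on a log axis, in CPM per kb of exon, with SD bars (circles, 4 Ehmt2-cross controls; squares, 3 Ezh2-cross controls; blue S-phase, orange mitotic). Pcna is highest and Gins3 lowest, and the SD of E2f1 in the Ehmt2 controls is wide, control 4 having 29.9 CPM against 4.24 to 12.8 in the others.

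A few members cannot be read as 1 clean gene. The Gins2 transcript shares 70.7% of its bases with Gse1, Ccne2 20.9% with Ints8, Ccna2 17.2% with Exosc9, Mcm7 13.0% with Ap4m1 and Cops6, and Orc1 11.9% with Gm12743, and the library kit does not mark strand. The transcript with the highest count was a retained-intron form for Rfc3 and a nonsense-mediated decay form for Tyms, and Pcna, Tyms, Ccnb1 and Ccnb2 have annotated pseudogenes that could take or give reads.

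Total counts were 32431296 to 68464895 per epiblast in the Ehmt2 cross and 30161171 to 37500157 in the Ezh2 cross. Ehmt2 had 10.3, 11.1, 15.5 and 32.8 CPM in its controls against 4.73, 4.47, 3.22 and 9.46 in its knockouts, and Ezh2 had 53.4, 67.2 and 112 CPM in its controls and 11.8, 12.0 and 16.6 in its knockouts. All 8 epiblast markers were present in every library, with Dnmt3b between 966 and 2031 CPM. Replicate 4 of the Ehmt2 cross, whose knockout is set against control 4 by itself in the column headings of the study's gene list, stood apart from replicates 1 to 3 in both genotypes (chi-square per degree of freedom 156 to 206 against 17.7 to 33.2), so the fit had a term for it. The 14 markers of extraembryonic ectoderm summed to 43.8 to 141 CPM in Ehmt2 controls and 888, 207.5, 254 and 66.6 CPM in knockouts 1 to 4. Of 13 tested, 5 were called higher and 2, Eomes and Sox3, had a log2 fold change below 0. Sfmbt2, Rhox5 and Eomes carried much of the sum, with 389, 201 and 116 CPM in knockout 1. Eomes also had 119 CPM in control 2. The study reports Rhox5, a late germline marker, as raised in single Ehmt2-/- epiblast cells. In the Ezh2 cross the sum of these 14 genes was 80.4 to 138 CPM in controls and 203, 226 and 132 in knockouts, with none of 11 called. There Sfmbt2, Rhox5 and Eomes had 56.9, 42.2 and 77.6 CPM in knockout 1, and Eomes had 98.4 CPM in control 2. Elf5 and Cdx2, 2 defining markers of extraembryonic ectoderm, were at 0 CPM in both replicate 4 epiblasts. Other genes of that list differed between control 4 and knockout 4 in both directions. Rhox5 had 0.0722 and 38.95 CPM and Sfmbt2 0.18 and 5.83, whereas Eomes had 39.1 and 16.0 and Ascl2 0.884 and 0.0484. The 12 visceral endoderm markers summed to 464 CPM in Ezh2 control 2 and 987 CPM in Ezh2 knockout 1 against 14.9 to 23.8 in the other 4 of that cross. Epiblast markers summed to 2384 to 2732 CPM in Ehmt2 controls and 1419 to 2127 in knockouts, and to 2383 to 2615 and 1925 to 2536 in the Ezh2 cross. Dnmt3b made up most of these sums, with 1566 to 2031 CPM in Ehmt2 controls and 966 to 1393 in knockouts. In the Ehmt2 cross 6 of the 8 had a log2 fold change below 0, and Sox2 (0.28) and Pou3f1 (0.03) did not. In the Ezh2 cross 4 of the 8 were below 0. The 10 decidua and blood markers summed to at most 34.9 CPM in any epiblast. Whether these shifts have a part in the members' values was not tested. In such whole tissue, fewer cycling cells and less RNA per cell cannot be told apart.

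In epiblasts lacking G9a the replication and division transcripts lay near their control levels. No member was called in the Ehmt2 cross at adjusted p under 0.05 (edgeR quasi-likelihood test, Benjamini-Hochberg over 49872 transcripts; smallest adjusted p = 0.128), where 0.204% of 13749 genes (0.162% of transcripts) were called lower and 0.902% (0.507% of transcripts) higher. At an unadjusted p under 0.05 by edgeR, Tyms was lower and Cdc6 and Cdk2 higher, against 6.86% and 8.58% of genes. DESeq2 called Cdc6 alone, as higher. All shares of genes given here are those of edgeR, and the share of genes that DESeq2 called was not counted. The median log2 fold change was 0.05 over the 27 S-phase members (range −0.36 to 0.44, 11 below 0) and −0.01 over the 16 mitotic members (−0.36 to 0.09, 8 below 0), beside 0.01 over all genes tested, of which 48.9% were below 0. With replicate 4 pooled with replicates 1 to 3, control and knockout values overlapped for all 43 members. By the same rule 2.63% of genes had every knockout below every control and 3.59% every knockout above. The precision was enough to bound the changes: the 95% interval of the log2 fold change lay within −1 to 1 for all 43 and within −0.5 to 0.5 for 30.

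Among the loading factors, Cdc6, the ATPase that recruits the MCM helicase to origins, had 38.0, 32.4, 41.8 and 50.7 CPM in the controls against 49.8, 50.4, 53.1 and 68.1 CPM in the knockouts, from replicate 1 to replicate 4. Every knockout lay above the mean control of its own comparison set (replicates 1 to 3, or replicate 4), but knockouts 1 and 2 were below control 4. The log2 fold change was 0.44 (SE 0.12, 95% interval 0.19 to 0.70, edgeR adjusted p = 0.128). A two-sided exact permutation test, which took no account of the comparison set, gave p = 0.0857, where 0.0286 is the smallest that 4 against 4 allow. DESeq2 put Cdc6 past the threshold, with an adjusted p of 0.0164, and over all alternatives of edgeR and DESeq2 other than leaving out an epiblast the adjusted p ran from 0.0164 to 0.615. Mcm7, the helicase subunit with the most counts, had a log2 fold change of −0.09 (SE 0.10), with controls at 122, 120.5, 137 and 194.5 CPM and knockouts at 126, 106, 133.5 and 173. The 6 MCM subunits together ran from −0.09 to 0.11.

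Cdk2, the kinase that pairs with cyclin E at the start of S phase, had 12.9, 12.9, 15.2 and 21.0 CPM in controls and 16.3, 16.8, 19.3 and 26.96 CPM in knockouts. Here too replicate 4 was the highest of both groups, and with it pooled the groups overlapped. Knockouts 1 to 3 were each above controls 1 to 3, and knockout 4 was above control 4. The log2 fold change of Cdk2 was 0.36 (SE 0.14, adjusted p = 0.36 by edgeR). Its partner Ccne1, cyclin E1, was at 0.20 (SE 0.15). Cdc45, the helicase activator, had 13.1, 15.5, 10.9 and 19.8 CPM in controls and 10.6, 11.7, 10.8 and 12.5 in knockouts (log2 fold change −0.36, SE 0.17). In the nucleotide synthesis group, Tyms, thymidylate synthase, had 53.0, 48.2, 49.4 and 60.2 CPM in controls and 48.8, 37.4, 38.6 and 50.1 CPM in knockouts (log2 fold change −0.27, SE 0.12, edgeR adjusted p = 0.408), whereas Rrm2 was at 0.15 (SE 0.15), and at 0.00 without either replicate 4 epiblast and 0.28 without control 3 or knockout 2. Pcna had a log2 fold change of −0.10 (SE 0.09), and Gins2 of −0.09 (SE 0.10).

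The effects on mitotic members reached less far upward, to 0.09 for Ccnb1. Aurka, the kinase of centrosome maturation, had 63.0, 35.1, 41.7 and 45.1 CPM in controls and 36.3, 33.1, 40.7 and 34.3 CPM in knockouts, so that the difference (log2 fold change −0.36, SE 0.17, edgeR adjusted p = 0.446) rested largely on control 1. Without control 1 it was −0.17. Bub1, a kinase of the spindle checkpoint, was at −0.24 (SE 0.12), with 98.5 to 120.7 CPM in controls and 77.0 to 107 in knockouts. Ccnb1 and Ccnb2, the B-type cyclins that activate CDK1, were at 0.09 (SE 0.10) and −0.20 (SE 0.21). The remaining leaders of the mitotic subgroups by count had log2 fold changes of 0.02 for Ccna2, 0.05 for Plk1, −0.03 for the spindle motor gene Kif11 and −0.02 for Top2a, each with an SE of 0.08 to 0.10. Top2a was also even across epiblasts, at 374 to 391.8 CPM in controls and 341 to 397 CPM in knockouts.

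Other members named by the same rule overlapped between the groups of this cross, replicate 4 often at one end. Orc1 had 34.4, 38.1, 38.9 and 29.4 CPM in controls and 36.1, 34.8, 43.5 and 48.7 in knockouts. Pola1 had 61.5, 54.1, 57.4 and 33.7 CPM in controls and 62.1, 59.1, 57.9 and 40.3 in knockouts. Plk1 had 79.9, 67.2, 74.2 and 71.2 CPM in controls and 72.5, 76.5, 79.8 and 73.5 in knockouts. Pola1 was lowest in replicate 4 of both genotypes. Pcna had 217.9, 220.9, 224.2 and 279.6 CPM in controls and 201.4, 184.4, 218.7 and 278.7 in knockouts. Rrm2 had 135.2, 142.9, 181.1 and 160.7 CPM in controls and 175.1, 122.3, 163.0 and 245.0 in knockouts. Ccne1 had 37.7, 30.9, 45.9 and 61.5 CPM in controls and 49.9, 39.99, 37.7 and 77.2 in knockouts. Among the knockouts, all 3 were highest in replicate 4. Gins2 had 81.2, 79.7, 81.9 and 87.6 CPM in controls and 69.9, 81.1, 75.3 and 83.95 in knockouts. Kif11 had 132.2, 143.3, 137.9 and 106.8 CPM in controls and 129.2, 122.4, 129.3 and 124.1 in knockouts. Ccna2 had 139.7, 130.7, 144.7 and 173.8 CPM in controls and 152.1, 130.8, 135.9 and 178.8 in knockouts. Kif11 was lowest and Ccna2 highest in replicate 4 of the controls. Ccnb1 had 105.2, 101.6, 97.05 and 123.8 CPM in controls and 109.6, 94.3, 110.1 and 144.2 in knockouts. Ccnb2 had 19.6, 29.7, 34.05 and 29.3 CPM in controls and 33.3, 25.3, 25.8 and 15.9 in knockouts.

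Cdkn1a, which encodes the inhibitor p21 of cyclin-dependent kinases, stood in contrast as a gene outside the lists. It had 4.19, 1.88, 6.17 and 4.04 CPM in Ehmt2 controls and 25.0, 39.7, 23.0 and 16.9 CPM in knockouts, and every knockout was above every control (log2 fold change 2.65, SE 0.34, edgeR adjusted p = 0.00438). In the Ezh2 cross it had 11.8, 3.93 and 8.40 CPM in controls and 9.98, 6.21 and 10.1 CPM in knockouts (log2 fold change 0.12, SE 0.37), where the groups overlapped.

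The level of the S-phase list in the Ehmt2 cross differed more between replicate 4 and the others than between genotypes. The mean of log2(CPM + 0.5) over the S-phase members was 5.36, 5.41 and 5.50 in controls 1 to 3 and 5.75 in control 4, and 5.50, 5.36 and 5.47 in knockouts 1 to 3 and 5.86 in knockout 4. In both genotypes replicate 4 was the highest. Of the 27 S-phase members, 17 were higher in replicate 4 than in each of replicates 1 to 3 in both genotypes and 2 were lower, with a median shift of 0.34 in the controls and 0.41 in the knockouts on the log2 scale. Among the 16 mitotic members 5 were higher and 3 lower in both, with median shifts of 0.06 and −0.01. How many of all genes were shifted in this way was not counted. Replicate 4 was also the highest for the epiblast markers, at 7.08 against 6.72 to 6.77 in controls and 6.85 against 6.27 to 6.59 in knockouts. Over all genes tested it was 3.03 against 2.94 to 2.95 in controls and 3.05 against 2.97 to 3.00 in knockouts. Pold1, the catalytic subunit of polymerase delta, was shifted by 0.87 and 1.54, and Pola1, of polymerase alpha, by −0.77 and −0.56. Within replicates 1 to 3 the median difference between knockouts and controls was 0.02 for both lists, and between knockout 4 and control 4 it was 0.21 for the S-phase list, with no replicate.

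**Figure D2:**
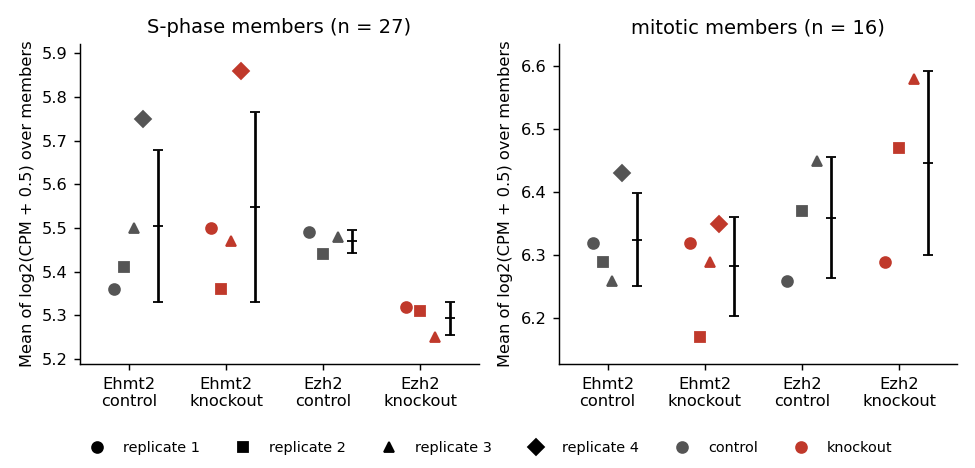
Mean of log2(CPM + 0.5) over the S-phase members (left) and the mitotic members (right) in each epiblast, by cross and genotype, with the group mean and SD beside the points. Replicate 4 (diamonds) is highest in both Ehmt2 groups on the left, at 5.75 and 5.86, and the 3 Ezh2 knockouts, at 5.25 to 5.32, lie below their controls, at 5.44 to 5.49.

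In epiblasts lacking EZH2 22 of 27 S-phase members lay below their controls and 12 of 16 mitotic members above, by small amounts, and the mitotic share changed when single epiblasts were left out. No member was called (smallest adjusted p = 0.404 by edgeR over 50855 transcripts), in a cross where 0.00714% of 14010 genes were called lower, which was Ezh2 itself, and 0.0% higher (0.0118% and 0.0% of transcripts). Of the 27 S-phase members 22 had a log2 fold change below 0, with a median of −0.14 and a range from −0.77 to 0.14, against a median of 0.03 and 46.0% below 0 over all genes tested. Of the 16 mitotic members 4 were below 0, with a median of 0.09 and a range from −0.40 to 0.41. Without knockout 3 the mitotic median was 0.00 with 8 of 16 below 0, and without control 1 it was 0.03 with 7 below 0, whereas the S-phase median stayed between −0.20 and −0.10 with 19 to 23 of 27 below 0 when any 1 epiblast was left out. In 6 S-phase members every knockout was below every control, namely Mcm4, Mcm6, Cdc6, Orc1, Pola1 and Cdk2, against 6.47% of genes, and in none was it above. Among the mitotic members this held for Bub1, while every knockout was above every control for Aurka and Plk1, against 7.71% of genes. At an unadjusted p under 0.05 by edgeR, 4 S-phase members were lower and none higher, and 1 mitotic member was lower and 2 higher. By the same rule 3.39% of genes were lower and 5.5% higher. DESeq2 called Cdc6 alone, as lower, and the share of genes that DESeq2 called was not counted in this cross either.

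Per epiblast, the S-phase list separated the groups and the mitotic list did not. The mean of log2(CPM + 0.5) over the S-phase members was 5.49, 5.44 and 5.48 in controls 1 to 3 and 5.32, 5.31 and 5.25 in knockouts 1 to 3, a mean difference of −0.18 with no overlap. Over the mitotic members it was 6.26, 6.37 and 6.45 in controls and 6.29, 6.47 and 6.58 in knockouts, which overlapped. Over all genes tested it was 2.92 to 2.99 in controls and 3.00 to 3.08 in knockouts. Extraembryonic ectoderm markers were also higher in each of these knockouts than in the controls on this scale (1.08 to 2.29 against 0.53 to 0.93), and their part in the lower S-phase level was not tested. Without control 2 and knockout 1, the pair rich in visceral endoderm markers, the S-phase median was −0.14 with 23 of 27 below 0 (an alternative chosen after seeing the data).

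Origin licensing held 4 of the 6 S-phase members whose knockouts were below all controls. All 10 of its genes had a log2 fold change at or below 0, Orc6 at 0.00 and Mcm5 at −0.03 being the closest to 0. Cdc6 had 48.0, 44.8 and 48.6 CPM in controls and 35.8, 25.6 and 21.5 CPM in knockouts. Every knockout was well below the tight controls, and the log2 fold change was −0.77 (SE 0.18, 95% interval −1.17 to −0.37, edgeR adjusted p = 0.404; two-sided exact permutation p = 0.1, the smallest that 3 against 3 allow). Under DESeq2 its adjusted p was 0.0137, and over the alternatives other than leaving out 1 epiblast it ran from 0.0137 to 0.498. Orc1, the largest subunit of the origin recognition complex, had 44.2, 38.9 and 34.5 CPM in controls and 32.7, 29.0 and 23.5 in knockouts (log2 fold change −0.47, SE 0.16, adjusted p = 0.592 by edgeR). Mcm4 had 135, 145 and 149 CPM in controls against 123, 124.5 and 125 in knockouts (−0.20, SE 0.10), and Mcm6 141.5, 120.2 and 114 against 101, 107 and 109.8 (−0.24, SE 0.12). Mcm7 was at −0.14 (SE 0.13), with overlapping groups.

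Outside licensing, Pola1, the catalytic subunit of the polymerase that primes DNA synthesis, had 64.5, 63.5 and 59.9 CPM in controls and 47.7, 53.8 and 45.0 CPM in knockouts (log2 fold change −0.36, SE 0.12, edgeR adjusted p = 0.578). Cdk2 had 13.9, 15.6 and 19.5 CPM in controls and 11.2, 12.6 and 10.3 CPM in knockouts (−0.52, SE 0.20, edgeR adjusted p = 0.622). For both genes all knockouts were below all controls. Rrm2 had 149, 102.2 and 106 CPM in controls against 103, 99.4 and 71.9 in knockouts (−0.38, SE 0.18), and these overlapped. Without control 1 the Rrm2 difference was −0.19, and without knockout 3 it was −0.24. The remaining leaders of the S-phase subgroups were at −0.15 (SE 0.11) for Pcna, 0.06 (SE 0.12) for Gins2 and −0.25 (SE 0.14) for Ccne1, and Tyms and Cdc45 were at 0.09 (SE 0.12) and −0.22 (SE 0.19). Among GINS and CDC45 genes, 3 of 5 were below 0 with a median of −0.03.

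On the mitotic side, Bub1 had 111, 112 and 131 CPM in controls and 93.3, 89.1 and 85.9 CPM in knockouts (log2 fold change −0.40, SE 0.11, edgeR adjusted p = 0.517), below all controls and apart from the list's median of 0.09. Aurka had 38.3, 44.6 and 38.9 CPM in controls and 44.7, 61.6 and 55.0 CPM in knockouts (0.41, SE 0.15, edgeR adjusted p = 0.609), where knockout 1 was only just above control 2. Plk1, a kinase required for bipolar spindles and mitotic exit, had 66.5, 76.6 and 74.2 CPM in controls and 85.2, 91.5 and 91.7 in knockouts (0.30, SE 0.11, edgeR adjusted p = 0.619). Ccnb2 was at 0.28 (SE 0.19), with knockout 3 at 49.0 CPM against 28.9 to 32.2 in controls. Ccnb1 at 0.12 (SE 0.11), Kif11 at 0.19 (SE 0.16), Ccna2 at −0.07 (SE 0.15) and Top2a at −0.04 (SE 0.13) overlapped between groups. The 95% interval lay within −1 to 1 on the log2 scale for 41 of the 43 members in this cross, all but Cdc6 and Ccne2.

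The remaining members named by the rule overlapped between the groups. Pcna had 247.2, 255.3 and 224.7 CPM in controls and 195.2, 226.8 and 232.7 in knockouts. Gins2 had 80.1, 65.2 and 78.3 CPM in controls and 75.9, 77.2 and 79.5 in knockouts. Top2a had 392.6, 404.3 and 486.9 CPM in controls and 346.2, 430.4 and 474.6 in knockouts. Top2a was highest in replicate 3 of both genotypes. Mcm7 had 141.6, 132.1 and 123.3 CPM in controls and 105.3, 116.4 and 137.4 in knockouts. Ccne1 had 36.9, 38.2 and 40.5 CPM in controls and 37.6, 28.6 and 31.3 in knockouts. Ccna2 had 136.8, 145.0 and 197.4 CPM in controls and 142.5, 146.1 and 168.9 in knockouts. Knockout 1 lay among the controls for Ccne1. Kif11 had 110.7, 138.9 and 157.8 CPM in controls and 123.7, 171.3 and 170.4 in knockouts. Ccnb1 had 98.6, 105.1 and 107.8 CPM in controls and 102.2, 121.8 and 114.2 in knockouts. Ccnb2 had 32.2, 28.9 and 31.1 CPM in controls and 31.7, 30.9 and 48.99 in knockouts. For Ccnb2 only knockout 3 stood above the controls. Tyms had 49.6, 45.1 and 50.5 CPM in controls and 49.97, 51.3 and 53.6 in knockouts. Cdc45 had 12.03, 13.4 and 12.9 CPM in controls and 12.2, 10.4 and 10.3 in knockouts.

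The members not yet described follow with the Ehmt2 cross first and the Ezh2 cross second, and all overlapped between groups in both crosses. Mcm2 and Mcm3, of the helicase, had log2 fold changes of −0.08 against −0.06 and −0.05 against −0.13, and Cdt1, the loading factor that geminin inhibits, of 0.08 against −0.07. Gins1, Gins3 and Gins4 of the GINS complex were at 0.05 against −0.10, 0.35 against −0.03 and 0.15 against 0.03. Pold1 and Pole, the catalytic subunits of the replicative polymerases, were at −0.26 against −0.14 and 0.05 against 0.03, and Rfc3, of the clamp loader, at 0.02 against −0.25. Rrm1, the large subunit of ribonucleotide reductase, was at 0.19 against −0.19, Ccne2 at −0.09 against −0.41 and E2f1, a transcription factor of S-phase genes, at −0.20 against 0.14. Within the Ehmt2 cross the E2f1 difference was 0.22 in replicates 1 to 3 and −1.10 in replicate 4, so its sign came from replicate 4. On the mitotic side, Cdk1 was at −0.14 against 0.12 (in the Ehmt2 cross, 0.05 in replicates 1 to 3 and −0.72 in replicate 4), the checkpoint gene Bub1b at −0.04 against 0.17 and Cdc20 at 0.08 against 0.04. Aurkb and Birc5, of the chromosomal passenger complex, were at −0.10 against 0.01 and 0.06 against −0.04. The spindle assembly factor Tpx2 was at 0.06 against 0.04, the proliferation marker Mki67 at 0.01 against 0.07 and Cenpa, the centromeric histone, at 0.04 against 0.16.

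**Figure D3:**
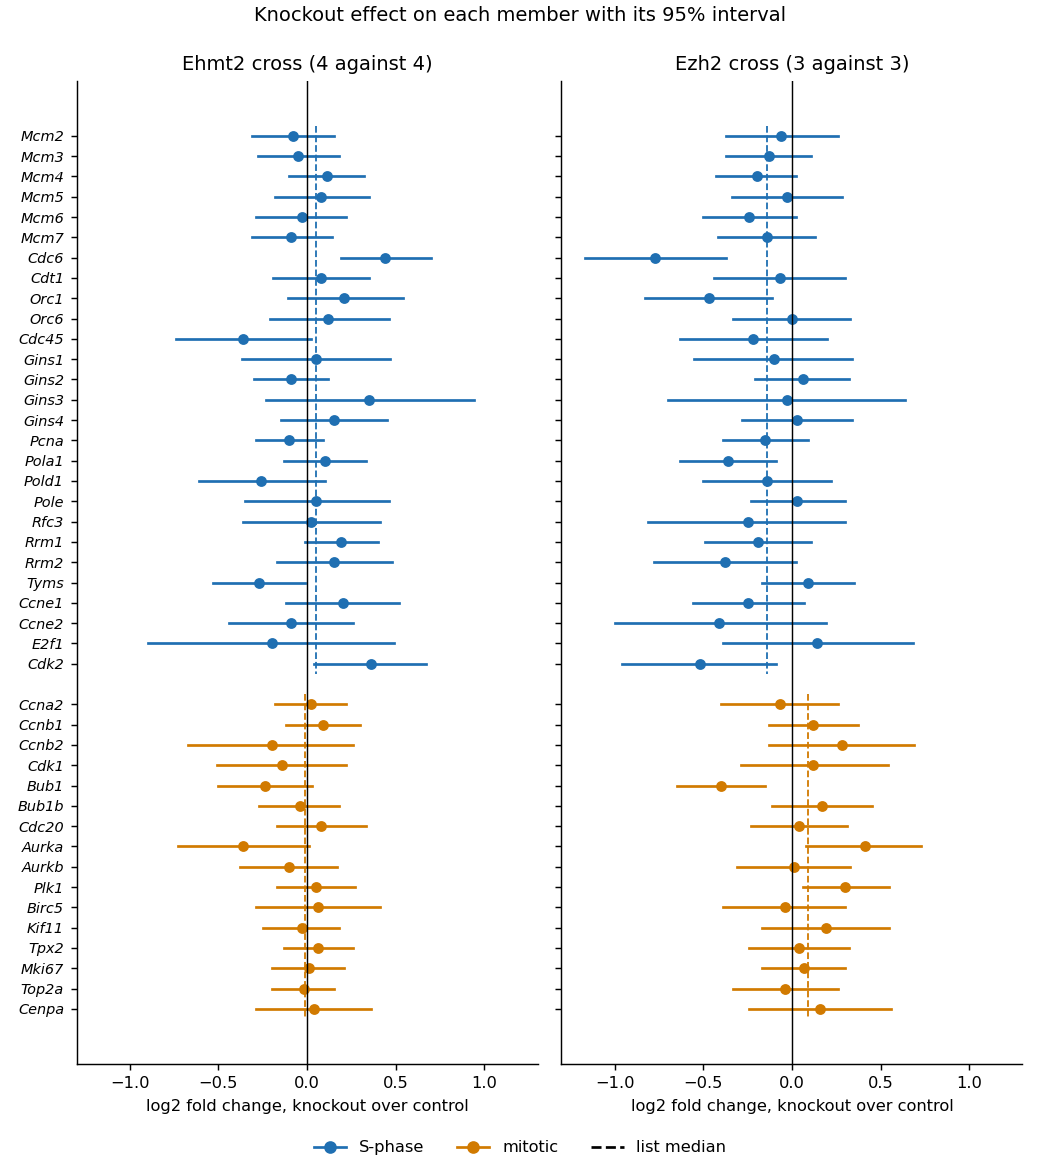
log2 fold change of each member, knockout over control, with its 95% interval, in the Ehmt2 cross (left) and the Ezh2 cross (right); dashed lines are the medians of the S-phase (blue) and mitotic (orange) members. The medians are 0.05 and −0.01 on the left and −0.14 and 0.09 on the right, and Cdc6 lies on opposite sides of 0.

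Cdc6 was the member whose knockout effect differed most between the crosses. The 2 crosses have separate controls, so the difference of their effects was fitted over all 14 epiblasts. For Cdc6 the effect in the Ehmt2 cross exceeded that in the Ezh2 cross by 1.22 on the log2 scale (SE 0.21, 95% interval 0.77 to 1.67, unadjusted p = 3.01e-05 and adjusted p = 0.0505 by edgeR), just short of the threshold that 0.118% of 15213 genes passed. It passed with RLE scaling (adjusted p = 0.0495), without the filter on low counts (0.0198) and with 1 transcript per gene in the fit (0.0334), and leaving out 1 epiblast moved the adjusted p between 0.00634 and 0.197. Cdk2 differed in the same direction by 0.88 (SE 0.23, edgeR adjusted p = 0.255), Orc1 by 0.68 (SE 0.23) and Pola1 by 0.46 (SE 0.15), and Aurka in the other by −0.76 (SE 0.25, edgeR adjusted p = 0.409). Over the S-phase members, 21 of 27 had the higher effect in the Ehmt2 cross, with a median difference of 0.15. An unadjusted p under 0.05 by edgeR was reached by 7 of the 27, 6 of them higher in the Ehmt2 cross. For the mitotic members 6 of 16 had the higher effect there, with a median of −0.09. Only Aurka reached that level, and it was lower in the Ehmt2 cross. Over all genes 49.2% had the higher effect there, with a median of −0.01, and 10.3% reached that level in either direction.

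**Figure D4:**
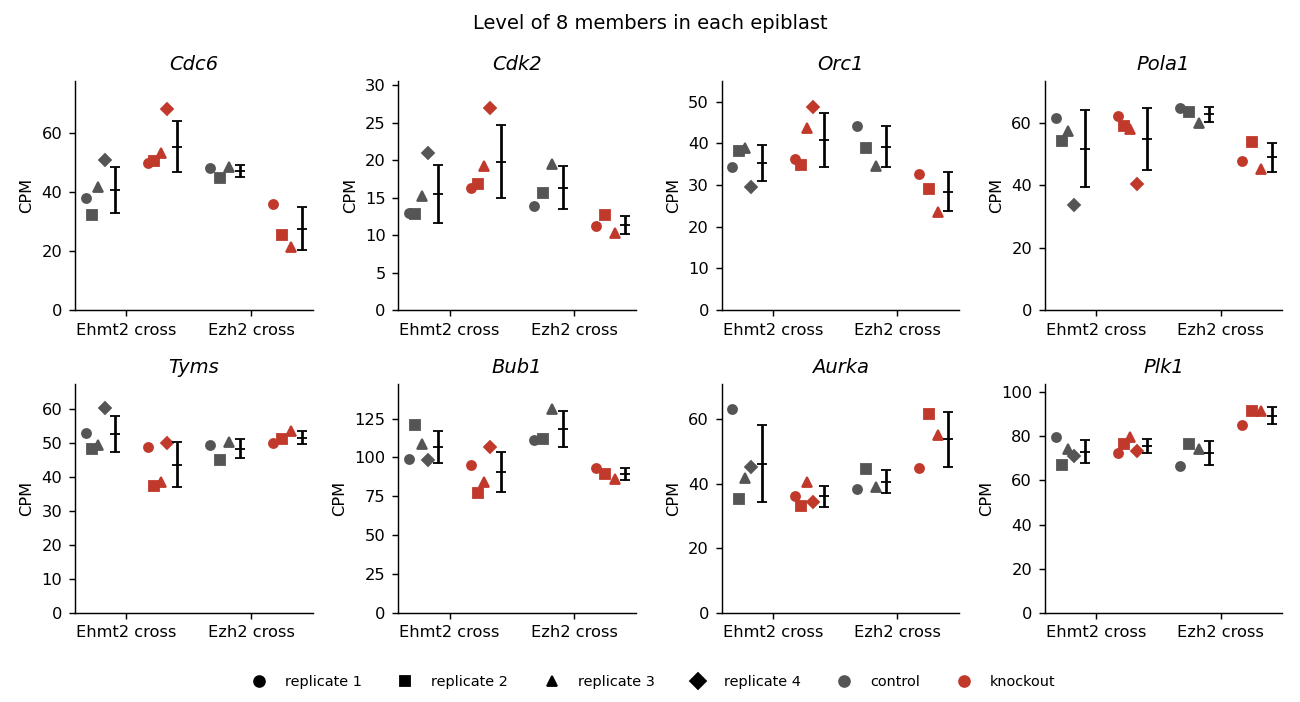
CPM of 8 members in each epiblast, with the mean and SD of each group beside its points and a separate axis from 0 for each gene. In the Ezh2 cross the knockouts lie below the controls for Cdc6, Cdk2, Orc1, Pola1 and Bub1 and above them for Aurka and Plk1. In the Ehmt2 cross, with replicate 4 pooled, the groups overlap for all 8. For Cdc6 and Cdk2, knockouts 1 to 3 there lie above controls 1 to 3 and knockout 4 above control 4.

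Other genes of the same machinery, outside the 43, were not called by edgeR either. DESeq2 was looked up only for the 2 with the smallest edgeR p in each cross and list, and it called 3 of those. The 39 related S-phase genes had a median log2 fold change of −0.07 in the Ehmt2 cross, with 26 below 0, and −0.12 in the Ezh2 cross, with 28 below 0. Of all genes tested, 48.9% and 46.0% were below 0 in the 2 crosses. All knockouts were below all controls for 1 of them in the Ehmt2 cross and 6 in the Ezh2 cross, against 2.63% and 6.47% of all genes, and above for none. The smallest p-values were those of Rpa3 (−0.55, SE 0.16) and Prim1 (−0.32, SE 0.13) in the Ehmt2 cross, a subunit of the single-strand binding protein and the primase, and of Cdc7 (−0.44, SE 0.15) and Rpa1 (−0.24, SE 0.11) in the Ezh2 cross. The 45 related mitotic genes had medians of −0.07 and 0.05 and 29 and 19 below 0 in the Ehmt2 and Ezh2 crosses. Without knockout 3 the Ezh2-cross median was −0.02, and without control 1 it was −0.01. All knockouts were below all controls for 2 and 1 of them, and above for 1 and 2, where 3.59% and 7.71% of all genes were above. There the smallest p-values belonged to Mybl2 (0.73, SE 0.19, edgeR adjusted p = 0.124), a transcription factor of the cell cycle, and Ube2c (−0.31, SE 0.10) after loss of G9a. After loss of EZH2 they belonged to Kif18b (0.72, SE 0.17, edgeR adjusted p = 0.409), a mitotic kinesin, and Foxm1 (0.55, SE 0.19), a transcription factor of G2 and mitosis genes. At an unadjusted p under 0.05, 5 related S-phase and 3 related mitotic genes were lower and 1 mitotic gene higher in the Ehmt2 cross, against 6.86% of all genes lower and 8.58% higher. In the Ezh2 cross 1 S-phase gene was lower and 4 mitotic genes higher, against 3.39% and 5.5%. Of the related genes named here, the 3 past the threshold under DESeq2 were Rpa3, Mybl2 and Kif18b, at adjusted p = 0.0413, 0.0102 and 0.0255. The other related genes were not looked up under DESeq2. The percentages beside the counts above are those of edgeR, with no such share counted for DESeq2.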

How the data were processed

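RNA of single E6.25 epiblasts was amplified with a kit that does not mark strand. The authors trimmed reads to 40 nt, aligned them to GRCm38 with TopHat2 and counted them per Ensembl transcript with HTSeq, and they deposited raw counts per transcript, 1 file per epiblast. A transcript missing from a file was taken as 0. The files of replicate 4 of the Ehmt2 cross also hold a row of unaligned reads (12.6% of the control's and 13.3% of the knockout's total), which was left out. Of 72515 transcripts listed, 70021 (96.6%) matched a GENCODE mouse gene name, giving 22134 genes.

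Each cross was fitted by itself over all transcripts passing filterByExpr, with edgeR 4.0.16 (R 4.3.3; TMM scaling, quasi-likelihood test, Benjamini-Hochberg adjustment, called under 0.05), with a term for replicate 4 in the Ehmt2 cross. The difference between crosses was fitted over all 14 epiblasts. DESeq2 1.42.0 was an alternative, and the remaining ones are given in the closing section. CPM were scaled by TMM library sizes, and those per kb were divided by transcript length. Single values had a two-sided exact permutation test (SciPy 1.17.1), which held no term for replicate 4. Motif intervals are Wilson intervals. The members and all gene lists were chosen with earlier results of these data known. Members described in every epiblast were, per cross and list, the 4 with the smallest unadjusted p, and the member of each subgroup with the highest mean count. Mcm4 and Mcm6 were added after their values were seen. Of the related lists, the 2 genes with the smallest p per cross were named.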

Additional observations from a re-analysis of the deposited data

Results flagged for a closer look

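Of 90 groups of 4 epiblasts checked in the Ehmt2 cross, 4 (4.44%) held 1 epiblast far from the others by Dixon's ratio of gap to range, where chance alone gives about 1 in 20. Cdt1 had 47.6 CPM in control 4 against 24.3 to 27.1 in the other controls (ratio 0.877), and Pcna 279.6 against 217.9 to 224.2 (ratio 0.898). Pold1 had 44.4 CPM in knockout 4 against 13.9 to 16.4 in the other knockouts (ratio 0.919), and Cenpa 48.6 against 19.4 to 23.0 (ratio 0.877). All 4 were in replicate 4, which stood apart over all transcripts.

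For 7 members every knockout of one cross lay above and every knockout of the other cross below its control mean, which in the Ehmt2 cross was taken from controls 1 to 3 for knockouts 1 to 3 and from control 4 for knockout 4. The difference of the effects, Ehmt2 cross minus Ezh2 cross on the log2 scale, was 1.22 for Cdc6, 0.88 for Cdk2, 0.46 for Pola1, 0.39 for Rrm1, 0.32 for Mcm4, −0.36 for Tyms and −0.76 for Aurka. Each was tested with edgeR, and none had an adjusted p under 0.05 (0.0505 for Cdc6 and 0.255 to 0.581 for the others). The share of all genes meeting the rule for these 7 members was not counted, so 7 cannot be set against a background share.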

How the results depend on the processing

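With 3 or 4 epiblasts a group, the log2 fold change of a member was known to a median of 0.26 either way in the Ehmt2 cross and 0.32 in the Ezh2 cross. Of 205 summary values recomputed under the alternatives 16 moved. Of 1018 values of single genes, related lists and medians over all genes 32 changed sign or crossed the threshold. The medians over all genes were counted as unchanged without being scored. DESeq2 called 1 member higher in the Ehmt2 cross (Cdc6, 0.45, adjusted p = 0.0164) and 1 lower in the Ezh2 cross (Cdc6, −0.77, adjusted p = 0.0137), where edgeR called none. How many of all genes DESeq2 called was not counted. Leaving out 1 epiblast in turn gave an Ezh2-cross S-phase median of −0.2 (without knockout 3) to −0.1 (without knockout 1), and 2 (without control 3) to 8 (without knockout 3) mitotic members below 0, with 7 without control 1; the mitotic median ran from 0.0 to 0.17. That count was 2 without the pair of epiblasts with visceral endoderm markers, an alternative chosen after seeing the data. The difference between crosses was called for 1 member, Cdc6, with 1 transcript per gene (1.21), RLE scaling (1.22), no filter (1.21) and without Ezh2 knockout 1 (1.44, adjusted p = 0.00634), the calls over single omissions running from 0 to 1, and these alternatives too were chosen after seeing the data. With promoters from 100 bases before to 50 after the start, the E2F core stood in 52.4% of S-phase, 7.69% of mitotic and 5.6% of all windows. In the same order, the CHR stood in 14.3%, 84.6% and 8.59%, and the CCAAT box in 57.1%, 76.9% and 23.4%. The cause of these changes was not tested.

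Members near 0 changed sign. With replicates 1 to 3 only, Ehmt2-cross Ccnb2 was at 0.02 and Mcm6 at 0.05. Without the visceral endoderm pair, Ezh2-cross Gins2 was at −0.02, Top2a at 0.04 and Cdkn1a at −0.31. Over single omissions the log2 fold change ran from −0.03 to 0.05 for Ccna2, −0.39 to 0.02 for Ccnb2, −0.05 to 0.02 for Top2a and −0.12 to 0.05 for Mcm6 in the Ehmt2 cross, and from −0.17 to 0.11 for Ccna2, −0.03 to 0.11 for Gins2, −0.14 to 0.08 for Top2a and −0.21 to 0.5 for Cdkn1a in the Ezh2 cross. The targeted genes kept their direction but lost the call in places: Ehmt2 without the term for replicate 4 (adjusted p = 0.289), and Ezh2 with 1 transcript per gene (0.0789), with summed transcripts (0.155) and without any 1 of the knockouts (0.0817 to 0.343).

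Replicate numbers were not taken as pairs, since the litter of each epiblast was not given and not every same-numbered pair correlated above 0.1: deviations from the group means correlated at 0.054 to 0.373 in the Ehmt2 cross (replicates 3 and 4 best with their own number), at −0.026 to 0.018 among its replicates 1 to 3 alone, and at −0.114 to 0.156 in the Ezh2 cross (replicate 3 best with its own). With a replicate block no member was called in either cross, and the medians were 0.05 and −0.01 (S-phase and mitotic, Ehmt2 cross) and −0.15 and 0.09 (Ezh2 cross).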
